A study of Zea mays with 17 samples.

Results

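The maize genes described here were near absent from tapetal cells of 1.5 mm anthers and well expressed in tapetal cells of 2.0 mm anthers. They were chosen by level: at least 100 CPM (a gene's count divided by the library total and multiplied by 1000000) in both tapetal libraries at 2.0 mm, and at most 20 CPM in both at 1.5 mm. The rule took 74 of 44146 nuclear genes, fewer than its cap of 150, and 4.33% of the 1710 nuclear genes that reached 100 CPM in both tapetal libraries at 2.0 mm. Because the tapetal libraries chose the genes, their tapetal levels are a description and carry no test. The tests below use the meiocyte, other somatic and fixed anther libraries, which the rule did not use.

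The anthers came from greenhouse plants of the inbred line W23 bz2, labelled wild type, with no treatment and no transgene in any group. At each length, laser capture, which cuts chosen cells from tissue sections, gave meiocytes (ME), tapetum (TAP) and other somatic cells (OSC), and whole fixed anthers (FA) were prepared beside them. There were 17 libraries in 8 groups, 3 for FA at 1.5 mm and 2 for each of the others. Total RNA was made into libraries by CEL-seq2, in which an oligo-dT primer starts cDNA synthesis and the sequenced end of a transcript lies near its 3′ terminus.

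The tapetum is the innermost layer of the anther wall and surrounds the cells that undergo meiosis. It is secretory, feeds the meiocytes and later the microspores, supplies enzymes and precursors for the pollen wall, and finally degenerates. In grasses it is also known as a site where precursors of phased small interfering RNAs are made during meiosis, and anther length is used in maize as a proxy for developmental stage.

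None of the 74 gene IDs, and none of the 44146 nuclear IDs, was paired with a gene name in the sources used here, so no functions, positions or sequences are given for the members. For the same reason the labelled cell types could not be checked against named marker genes. Library totals ran from 280760 to 4428287 counts, and 3 counts, the limit that a count of 0 allows, corresponded to between 0.677 and 10.7 CPM. The TAP libraries at 1.5 mm held 495100 and 501897 counts, against 2657831 and 3230264 at 2.0 mm, so the 20 CPM threshold stood for about 10 counts. Such limits cover counting error only. Nothing in the labels says that replicates came from separate plants, so p-values measure the spread between these libraries.

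In the other groups 2 libraries are set out here beside their partners. The first was among the FA libraries at 2.0 mm. A further 149 genes met the rule with the lengths exchanged, and so were high in TAP at 1.5 mm and low at 2.0 mm. They took 2.44% of the counts in FA 2.0 mm replicate 1, close to the 2.17% to 2.39% of the FA libraries at 1.5 mm, but 0.490% in replicate 2. The second was ME 1.5 mm replicate 2: of the 28 members with 0 counts in replicate 1, 27 had counts in replicate 2, with a median of 9.12 CPM and a highest value of 33.3 CPM. The ME libraries at 2.0 mm differed as well: replicate 1 had 0 counts for 22 members and replicate 2 for 35. What these differences stem from was not tested. Counts of members called are also given without FA 2.0 mm replicate 1 and without ME 1.5 mm replicate 2.

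In TAP the members together took 0.0501% and 0.0524% of the counts at 1.5 mm, and 1.95% and 2.16% at 2.0 mm. At 1.5 mm 11 members had 0 counts in both TAP libraries, and the highest count of any member in either was 10. At 2.0 mm the lowest count of any member was 267, and the lower of the replicate CPM values had a median of 159. That lower value reached 200 CPM in 22 members and 500 CPM in 6. The TAP libraries at 2.0 mm lay within 1.5-fold of each other for 64 members. The largest ratio between them was 5.25, for Zm00001d039638, at 108 and 569 CPM.

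Values close to the thresholds were as follows. Zm00001d024521 and Zm00001d047710 entered with lowest TAP values of 100.5 and 100.8 CPM at 2.0 mm, while Zm00001d033896 and Zm00001d016567 stayed out at 99.7 and 99.3 CPM. At 1.5 mm Zm00001d037465 and Zm00001d042598 entered with 19.9 CPM, while Zm00001d002087 and Zm00001d018613 stayed out at 20.2 CPM.

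**Figure D1:**
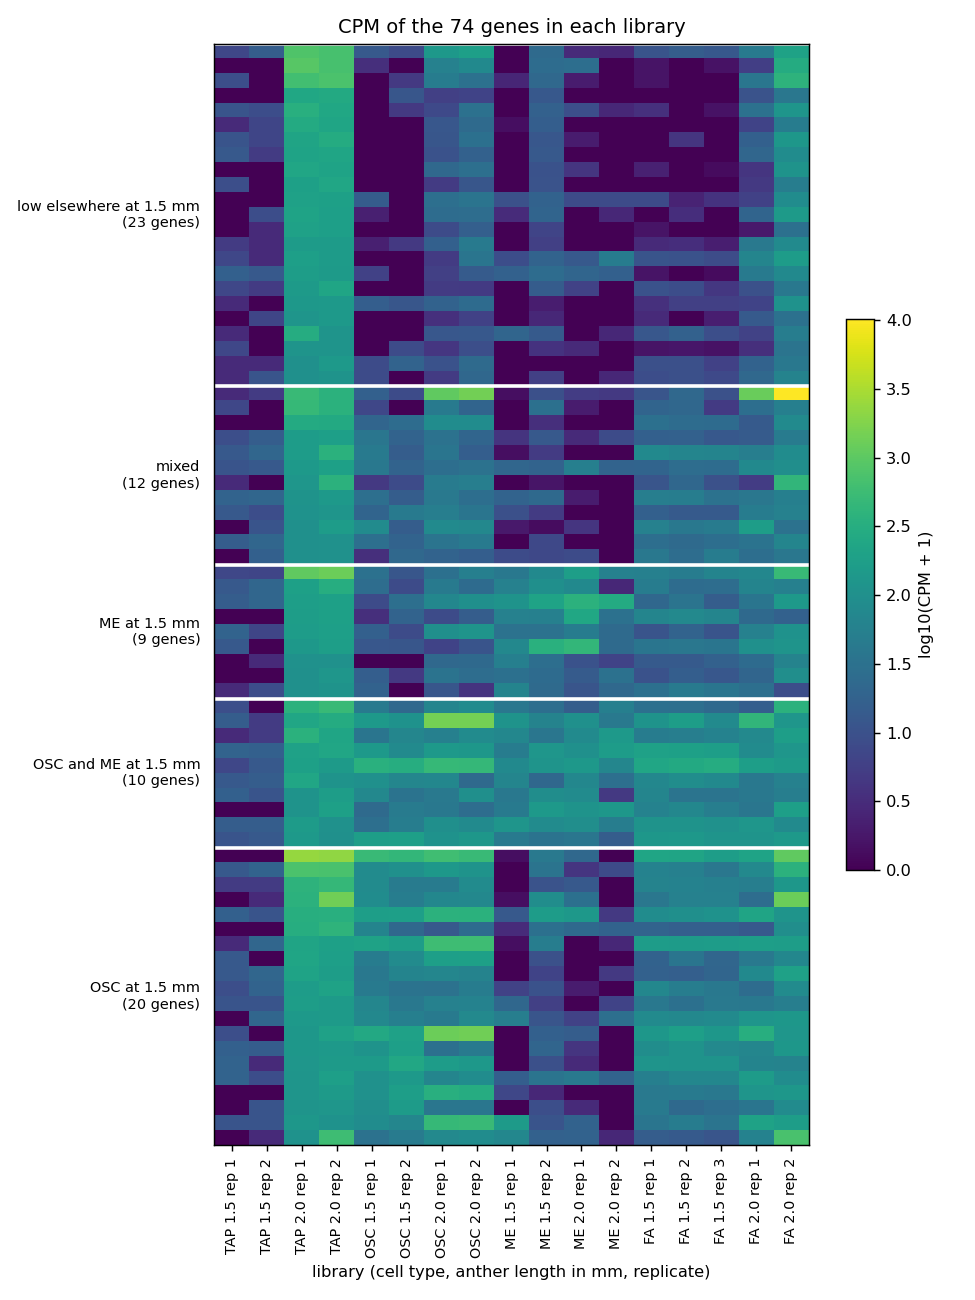
Each horizontal line is one of the 74 genes and each column one of the 17 libraries, with colour giving log10(CPM + 1); the genes are grouped by where they exceeded 20 CPM at 1.5 mm outside TAP. TAP columns turn from dark to bright between the lengths in every group. The OSC columns at 1.5 mm are already brighter for the 20 genes of the lowest block, and the FA columns for most of them.

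The members fell apart by where else they were found in the shorter anthers. For 23 genes all OSC and FA libraries at 1.5 mm and the first ME library lay at or below 20 CPM. These are called low elsewhere. The second ME library was not used for this, and some of these genes exceeded 20 CPM in it. A further 20 genes exceeded 20 CPM in both OSC libraries, 9 in both ME libraries and 10 in both, and 12 fitted none of these patterns. These groups were set after the values had been seen and describe them only. At 1.5 mm every OSC library lay above both TAP libraries for 42 members, every ME library for 28 and every FA library for 51. Since the rule itself kept the TAP libraries low at 1.5 mm, these counts are a description.

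The member with the highest TAP level at 2.0 mm, Zm00001d028474, was one of those found in OSC. It had 0 counts in both TAP libraries at 1.5 mm, and 2339.9 and 2234 CPM at 2.0 mm. In OSC it stood at 520 and 456 CPM at 1.5 mm and 606 and 521 CPM at 2.0 mm. The TAP groups were at least 758-fold apart, computed against 3 counts over the group at 1.5 mm, whereas the OSC libraries of both lengths lay between 456 and 606 CPM. In ME the gene reached 0.429 and 41.1 CPM at 1.5 mm and 21.6 and 0 CPM at 2.0 mm. In FA it stood at 222, 216 and 166 CPM at 1.5 mm and at 208 and 1080 CPM at 2.0 mm. The FA groups overlapped, with only replicate 2 at 2.0 mm above the shorter anthers. By the quasi-likelihood test of edgeR the rise in FA had an adjusted p of 0.166 (Benjamini-Hochberg).

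The next member by TAP level, Zm00001d047067, was found in ME instead. It rose from 6.06 and 5.98 CPM to 1074 and 1271 CPM in TAP, and stood in ME at 39.9 and 79.8 CPM at 1.5 mm and 176 and 57.2 CPM at 2.0 mm. The ME groups overlapped. Zm00001d050320, by contrast, belonged to the genes low elsewhere: it was at 0 in both TAP libraries at 1.5 mm and at 922 and 689.7 CPM at 2.0 mm, and its OSC libraries went from 2.45 and 0 CPM to 55.8 and 78.5 CPM. In FA it was at 0.656, 0 and 0.581 CPM at 1.5 mm, and at 4.52 and 293 CPM at 2.0 mm. The longer anthers were both above the shorter ones, by amounts that differed widely between replicates.

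The other members among the 10 highest in TAP divided in the same way. Zm00001d016895, Zm00001d016640 and Zm00001d043164 had both OSC libraries at 1.5 mm above 20 CPM, with lowest OSC values of 83.4, 46.3 and 49.9 CPM. Zm00001d028410 exceeded 20 CPM in both OSC and both ME libraries, with lowest values of 21.4 and 27.5 CPM. Zm00001d009060 and Zm00001d048079 were low elsewhere, with OSC values at 1.5 mm of at most 12.3 and 3.56 CPM. In ME 1.5 mm replicate 2, which that pattern leaves out, they stood at 22.9 and 21.5 CPM. Zm00001d039859 met none of the patterns, because one FA library at 1.5 mm, at 21.7 CPM, passed 20 CPM and neither OSC library did.

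At 2.0 mm TAP had the highest mean of the captured cells for 63 of the 74 members, OSC for 9 and ME for 2. Both OSC libraries lay below both TAP libraries for 63 members and above them for 8, and both ME libraries lay below for 70 and above for 1. The median ratio of the OSC mean to the TAP mean was 19.0% over the members, against 45.3% over the other 1636 genes that reached 100 CPM in TAP at 2.0 mm. For ME the ratios were 1.40% and 24.2%, and for FA 38.6% and 73%. Since these ratios use the TAP libraries that chose the members, they are given with no test. In the genes low elsewhere the OSC mean was 6.70% of the TAP mean at the median, with a range of 1.94% to 21.3%. In the genes also found in OSC at 1.5 mm it was 34.9%, with a range of 5.01% to 793%.

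**Figure D2:**
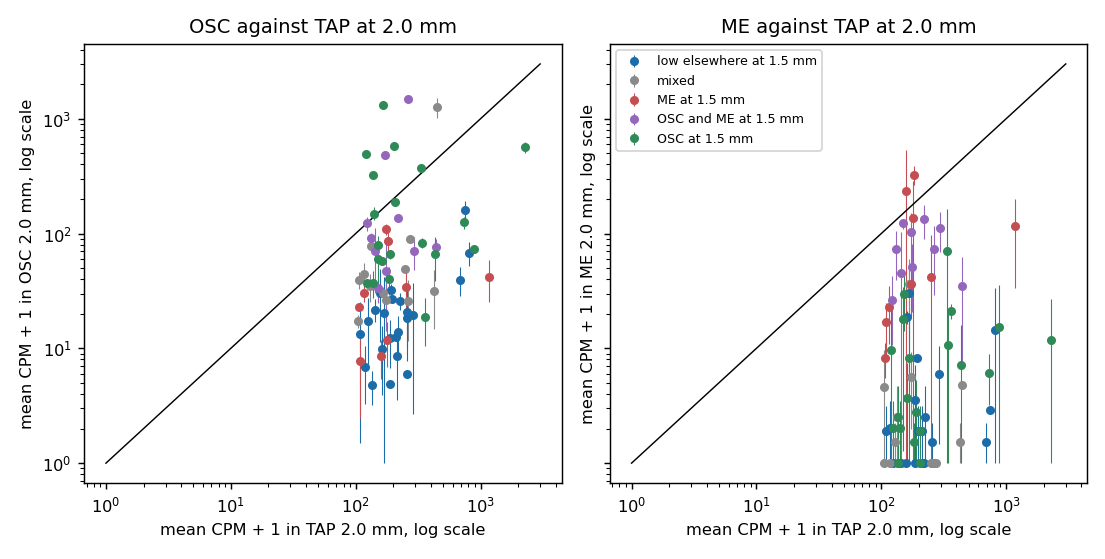
Mean CPM + 1 of each gene at 2.0 mm in OSC (left) and ME (right) against TAP, on log axes, with n = 2 libraries per mean, vertical bars of 1 SD (cut at 0 CPM) and the line of equal values. Most points lie below the line in both panels, ME points lie lowest, and the few OSC points above the line belong mainly to genes found in OSC at 1.5 mm.

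In OSC the members' share of counts was 0.408% and 0.386% at 1.5 mm, and 0.960% and 1.03% at 2.0 mm. The groups did not overlap. Both of the later OSC libraries exceeded both of the earlier ones for 40 members (54.1%), against 26.6% of all genes tested. They lay below them for 5 (6.76%), against 25.5%. Of the 69 members that passed the filter on low counts, 28 did not reach its level of 8.07 CPM in both OSC libraries at 1.5 mm. Those 28 passed through other libraries, and their low level at 1.5 mm left more room for a rise than for a fall. In a fit of the 8 ME and OSC libraries with edgeR's quasi-likelihood test, however, 0 members were called higher (background 0%) and 0 lower (background 0.0129%) at an adjusted p under 0.05. At an unadjusted p under 0.05 there were 16 members (21.6%), against 9.88% of all genes tested. DESeq2 called 4 members higher and 0 lower, where it called 1.61% and 1.55% of all genes. Fitted to the 4 OSC libraries alone, edgeR called 21 members higher and 2 lower, against 6.69% and 4.58% of all genes. In the joint fit the biological coefficient of variation, the spread between replicates beyond counting error, was 75.0%. Fitted without a filter on low counts, the median log2 change over all 74 members was 1.49, or 1.27 with genes at 0 in a group set to their bound, against 0.34 over the genes tested.

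Zm00001d039859 had the smallest p of the members for the change with length in OSC. It stood at 15.9 and 7.12 CPM in OSC at 1.5 mm and at 1086 and 1446 CPM at 2.0 mm. The groups were far apart, and the log2 change of 6.97 ± 1.13 (SE) had an adjusted p of 0.0717 by edgeR's quasi-likelihood test, so it was not called. Zm00001d005459 went from 147 and 110.4 CPM to 1483 and 1505 CPM, again with no overlap, and its log2 change of 3.87 ± 0.66 had an adjusted p of 0.091 by the same test. Of the 57 genes that met the thresholds of the rule in OSC in place of TAP, 2 were members, Zm00001d009060 and Zm00001d039859. They made up 2.7% of the members and 3.51% of the OSC set.

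Of the 5 members with the highest mean in OSC at 2.0 mm, 4 had an OSC level above their TAP level. These were Zm00001d005459 with a mean of 1494 CPM, Zm00001d039037 with 1316 CPM, Zm00001d039859 with 1266 CPM and Zm00001d042598 with 582 CPM. Zm00001d039037 stood at 262 and 192 CPM in OSC at 1.5 mm and 1273 and 1358 CPM at 2.0 mm, against 133 and 199 CPM in TAP at 2.0 mm. Zm00001d042598 stood at 205 and 171 CPM, then 587 and 577 CPM in OSC, against 215 and 188 CPM in TAP at 2.0 mm. For both genes OSC exceeded the later TAP level at 2.0 mm without overlap. The fifth, Zm00001d028474, averaged 564 CPM in OSC, below TAP.

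In ME the members stayed low. Their share of counts was 0.162% and 0.262% at 1.5 mm and 0.272% and 0.136% at 2.0 mm, so the groups overlapped. At 2.0 mm 47 members lay at or below 20 CPM in both ME libraries, 16 of them with 0 counts in both, and 12 lay above 20 CPM in both. Both ME libraries at 2.0 mm were above both at 1.5 mm for 2 members (2.7%), against 7.67% of all genes tested, and below for 12 (16.2%), against 17.8%. Of the 69 members that passed the filter on low counts, 40 did not reach its level of 8.07 CPM in both ME libraries at 1.5 mm. With edgeR's quasi-likelihood test 0 members were called higher and 0 lower (background 0% in each direction). There were 7 members (9.46%) at an unadjusted p under 0.05, close to the 7.89% of all genes tested, and DESeq2 called 0 members. Without ME 1.5 mm replicate 2 edgeR again called 0 members. Over all 74 members the median log2 change was -1.09, or -0.71 with genes at 0 in a group set to their bound, against -0.16 over the genes tested.

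The 5 members with the highest ME mean at 2.0 mm were Zm00001d002530, Zm00001d000526, Zm00001d047323, Zm00001d022341 and Zm00001d021453, with means of 325, 235, 136, 132 and 122 CPM. Zm00001d002530 was the single member with both ME libraries, at 369.6 and 281 CPM, above both TAP libraries at 2.0 mm, at 174 and 188 CPM. Its ME values at 1.5 mm were 114 and 211 CPM, below both later values. Zm00001d000526 stood at 73.0 and 353 CPM in ME at 1.5 mm and at 447 and 23.2 CPM at 2.0 mm. Its replicates differed more than its groups did.

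**Figure D3:**
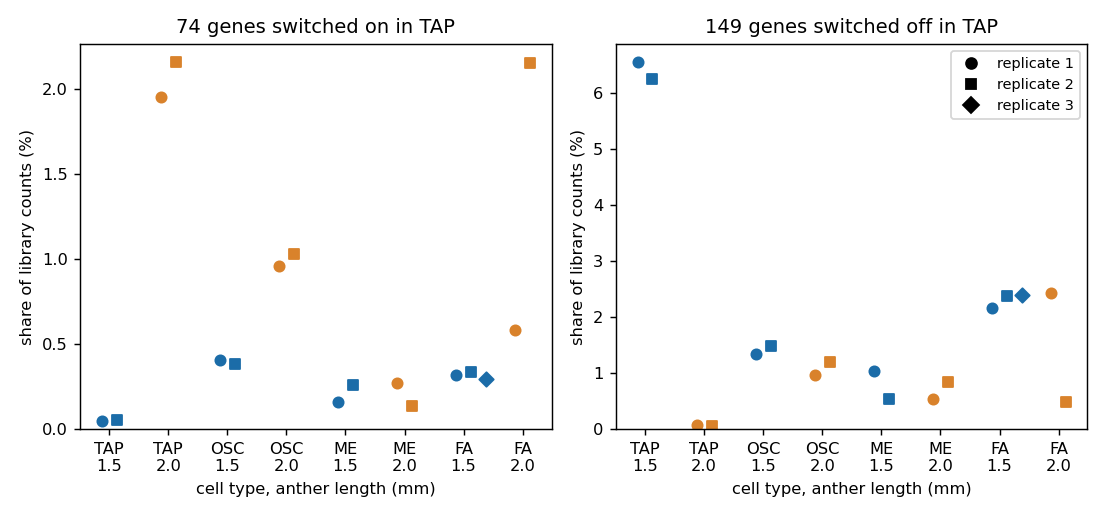
Share of each library's counts (%) held by the 74 members (left) and by the 149 genes with the opposite pattern in TAP (right), by cell type and anther length in mm, with 1 point per library and the marker shape giving the replicate. The members' share is near 2% in both TAP libraries and in replicate 2 of FA at 2.0 mm, and FA 2.0 mm replicate 1 lies far from replicate 2 in both panels.

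In FA, which holds all cells of the anther, the tapetum included, the members' share of counts was 0.319%, 0.334% and 0.297% at 1.5 mm and 0.582% and 2.15% at 2.0 mm. Both longer anthers lay above all 3 shorter ones. One gene, Zm00001d039859, accounted for 1.02% of all counts in replicate 2 at 2.0 mm; without it the share of the other members was 0.460% and 1.13% at 2.0 mm, and between 0.296% and 0.332% at 1.5 mm. For a bulk sample such as FA, more cells of a type and more RNA per cell cannot be told apart.

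Among the 16116 genes tested in the 5 FA libraries, 28 members (37.8%) were called higher at 2.0 mm by edgeR's quasi-likelihood test, against a background of 15.2%. The test called 4 members (5.41%) lower, against 14.5%. All 74 members are counted here, of which 70 passed the filter on low counts, 12 of them through their level at 2.0 mm alone. The low level of those 12 at 1.5 mm left more room for a rise than for a fall. They include Zm00001d044021, Zm00001d040117, Zm00001d048079 and Zm00001d042656, whose rises are given below. Both FA libraries at 2.0 mm lay above all 3 at 1.5 mm for 43 members (58.1%), against 22.5% of all genes tested, and below for 6 (8.11%), against 34%. The median log2 change over all 74 members was 1.80, against -0.02 over the genes tested. The members called higher comprised 11 of the 23 genes low elsewhere, 7 of the 20 found in OSC, 5 of the 9 found in ME, 1 of the 10 found in both, and 4 of the 12 with mixed patterns. The genes low elsewhere were defined in part by FA at 1.5 mm, the baseline of this test. The split by group is thus a description only. Of the 149 genes with the opposite pattern in TAP, 76 (51%) were called lower and 0 higher by the same test.

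The replicates of FA at 2.0 mm differed in most members. Replicate 2 was higher than replicate 1 for 61 members (82.4%), with a median ratio of 2.44, whereas among 8616 nuclear genes with a mean of at least 20 CPM in FA at 2.0 mm it was higher for 4717, with a median ratio of 1.04. With replicate 1 left out, 54 members were called higher in FA, against 18.9% of all genes, and with replicate 2 left out, 34 were, against 19.8%. Leaving out FA 1.5 mm replicate 1, 2 or 3 gave 17, 18 and 16 members, against 9.63%, 10.3% and 8.96% of all genes. Each of these counts assumes that a lone library, where one remains, varies as the other group does.

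**Figure D4:**
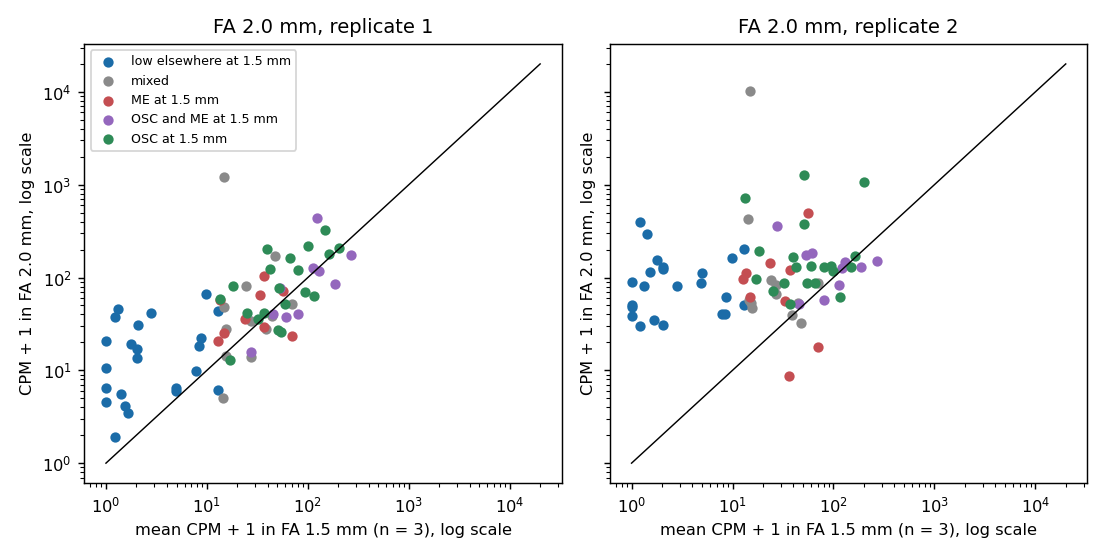
CPM + 1 of each gene in replicate 1 (left) and replicate 2 (right) of FA at 2.0 mm against the mean of the 3 FA libraries at 1.5 mm, on log axes, with the line of equal values. Replicate 2 lies higher above the line than replicate 1 for most genes, and the genes low elsewhere at 1.5 mm rise from the left edge in both panels.

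Among the rises in FA, 4 of those with the smallest adjusted p are given here. Zm00001d044021 stood at 0.656, 0 and 0.291 CPM in FA at 1.5 mm, 2 counts in all, and at 44.3 and 79.6 CPM at 2.0 mm. The ratio of the summed counts was 176 with a 95% counting interval of 48.5 to 1461 (edgeR adjusted p = 3.6e-05). Zm00001d043600 stood at 34.8, 46.6 and 34.3 CPM in FA at 1.5 mm and at 203 and 167 CPM at 2.0 mm. The groups did not overlap, and the log2 change was 2.43 ± 0.21 (SE; adjusted p = 7.8e-05, edgeR quasi-likelihood test, Benjamini-Hochberg). Zm00001d040117 went from 1.97, 2.33 and 1.16 CPM to 40.6 and 80.9 CPM, a log2 change of 5.30 ± 0.46 by the same edgeR fit. Zm00001d034480 went from 41.3, 43.5 and 38.7 CPM to 123 and 129.8 CPM, with replicates that nearly coincided, and its log2 change was 1.78 ± 0.19 (edgeR adjusted p = 0.000229). In the last 3 of these genes both OSC libraries at 2.0 mm also lay above both at 1.5 mm.

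By the fitted log2 change, the leading called rises in FA were those of Zm00001d048079, Zm00001d042656 and Zm00001d039859. For Zm00001d042656, at 0 in FA at 1.5 mm, the size of the rise has a lower bound only, so its place in this order is not measured. Zm00001d048079 stood at 0.656, 0 and 0 CPM in FA at 1.5 mm, a single count in all, and at 36.1 and 395 CPM at 2.0 mm. The ratio of the summed counts was 996 with a 95% counting interval of 178 to 39360, and edgeR's adjusted p was 0.0384. Leaving out any of the 3 FA libraries at 1.5 mm in turn ended this call, with adjusted p between 0.0783 and 0.182, and so did leaving out the filter on low counts, at 0.081.

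Zm00001d042656 had 0 counts in all 3 FA libraries at 1.5 mm and stood at 9.48 and 37.2 CPM at 2.0 mm. It was thus at least 39.6-fold higher in the longer anthers, against 3 counts over the group (edgeR adjusted p = 0.0144). In the captured cells it was at 0 in both TAP libraries at 1.5 mm, at 241 and 272 CPM in TAP at 2.0 mm, at 4.65 and 5.31 CPM in OSC and at 0 in both ME libraries at 2.0 mm. Its ratio of FA to TAP at 2.0 mm, 0.0910, was among the 3 lowest, with Zm00001d029526 at 0.0816 and Zm00001d002939 at 0.0934.

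Zm00001d039859 went from 10.5, 21.7 and 9.01 CPM in FA at 1.5 mm to 1215 and 10184 CPM at 2.0 mm. Its log2 change was 8.91 ± 1.38 (edgeR adjusted p = 0.0217), and without FA 1.5 mm replicate 1 or 3 the call was lost, at adjusted p of 0.0653 and 0.0688. The value in replicate 2 lay above each of the 6 captured libraries at 2.0 mm, of which the highest was OSC at 1446 CPM. Its ratio of FA to TAP at 2.0 mm was 12.9, followed by Zm00001d043600 at 1.55 and Zm00001d039037 at 1.37. In all, FA replicate 2 exceeded every captured library at 2.0 mm for 4 members, Zm00001d039859, Zm00001d052174, Zm00001d039638 and Zm00001d029810, and replicate 1 did so for Zm00001d006753. These 5 were picked out after their values were seen.

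The 4 members called lower in FA were already expressed there at 1.5 mm. Zm00001d047323 stood at 64.9, 76.8 and 65.4 CPM in FA at 1.5 mm and at 22.4 and 16.9 CPM at 2.0 mm. It fell by 1.64 ± 0.25 on the log2 scale (edgeR adjusted p = 0.0016), with no overlap, while TAP went from 0 in both libraries to 167 and 189 CPM. Zm00001d039848 fell from 117, 114 and 112 CPM to 62.5 and 60.1 CPM (edgeR adjusted p = 0.0165). Zm00001d022341 fell from 195, 187 and 173 CPM to 83.8 and 128 CPM (edgeR adjusted p = 0.0464), and the fourth was Zm00001d009638 (edgeR adjusted p = 0.0439), which was named because the count is small. The falls of Zm00001d039848 and Zm00001d022341 lost their calls when any FA library at 1.5 mm was left out, and 1 member was then called lower. That of Zm00001d022341 was also lost without FA 2.0 mm replicate 1 (adjusted p = 0.137), with RLE scaling (0.0504) and with DESeq2 (0.0606).

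**Figure D5:**
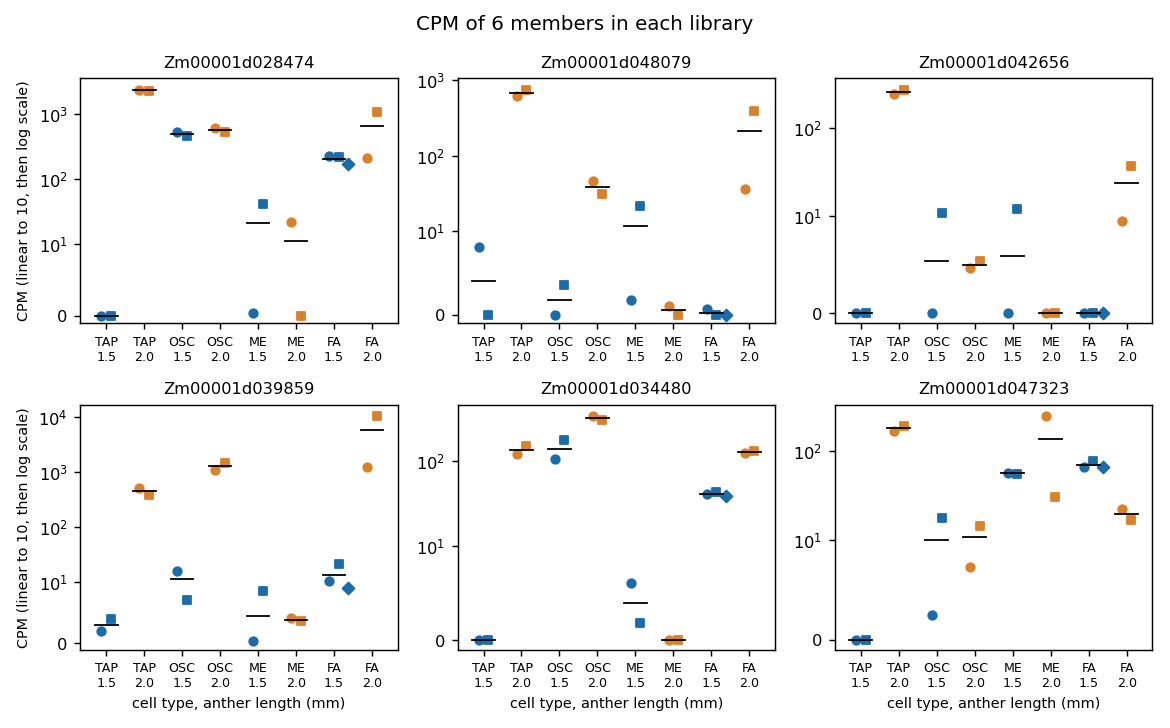
CPM of 6 members in each of the 17 libraries, by cell type and anther length in mm, on a scale that is linear to 10 CPM and logarithmic above; blue marks 1.5 mm and orange 2.0 mm, marker shapes give the replicate and black lines the mean. TAP rises from at most 8.08 CPM to at least 120 CPM in each panel, while OSC, ME and FA differ between the genes, and Zm00001d047323 is lower in FA at 2.0 mm.

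At 2.0 mm more members were called higher in OSC than in ME than the reverse. Of the 74 members 25 (33.8%) were called higher in OSC by edgeR's quasi-likelihood test, against a background of 20.7%, and 3 (4.05%) were called lower, against 11.4%. The median log2 difference over all 74 was 3.76, or 2.74 with genes at 0 in a group set to their bound, against 0.81 over the genes tested. Of the 74 members 69 passed the filter on low counts. At 2.0 mm 47 members lay at or below 20 CPM in both ME libraries. This left more room for calls higher in OSC than for calls lower. The calls were fewer with 1 library less, as they were over all genes. They came to 18 and 11 without ME 2.0 mm replicates 1 and 2, against 10.5% and 11.1% of all genes, and to 9 and 10 without OSC 2.0 mm replicates 1 and 2, against 7.34% and 7.13%. The genes called higher in OSC comprised 10 of the 20 found in OSC at 1.5 mm, 8 of the 12 with mixed patterns, 5 of the 23 low elsewhere and 2 of the 10 found in both.

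Zm00001d034480 stood at 337 and 307 CPM in OSC at 2.0 mm and at 0 in both ME libraries. OSC was at least 162-fold higher, against 3 counts over the ME group (edgeR adjusted p = 0.000967). Zm00001d040059, at 183 and 189.7 CPM in OSC and 0 in both ME libraries, was at least 95.7-fold higher (edgeR adjusted p = 0.0107). Zm00001d051442, at 89.0 and 88.8 CPM in OSC and 0 in both ME libraries, was at least 45.4-fold higher (edgeR adjusted p = 0.0127). In each of these genes the OSC libraries lay close together and apart from ME.

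The 3 members lower in OSC than in ME were all among the 9 found in ME at 1.5 mm. Zm00001d000526 stood at 5.32 and 9.87 CPM in OSC at 2.0 mm and at 447 and 23.2 CPM in ME, a log2 difference of -5.15 ± 1.35 (SE; edgeR adjusted p = 0.0192). Zm00001d047323 stood at 7.31 and 14.4 CPM in OSC and 242 and 30.4 CPM in ME, a log2 difference of -3.85 ± 1.17 (edgeR adjusted p = 0.0326). In both, ME replicate 1 lay well above replicate 2, and without it the differences were -1.37 and -1.26, with edgeR adjusted p of 0.342 and 0.43. Without either OSC library the adjusted p lay between 0.0713 and 0.169. Zm00001d002530 stood at 71.1 and 97.5 CPM in OSC against 369.6 and 281 CPM in ME, where the replicates were closer (log2 difference -2.13 ± 0.70, edgeR adjusted p = 0.0404). Its call was lost when any one of the 4 libraries was left out, at adjusted p between 0.0948 and 0.213, and with both other scalings of the library sizes, at 0.0578 and 0.0778. In each of these cases the sign stayed negative.

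More members were likewise called higher in fixed anthers than in ME at 2.0 mm than the reverse. In a fit of the 13 ME, OSC and FA libraries with edgeR's quasi-likelihood test, 44 members (59.5%) were called higher in FA than in ME, against 30.9% of genes, and 1 (1.35%) lower, against 6.37%. The median log2 difference over all 74 was 5.04, or 3.77 with genes at 0 in a group set to their bound, against 1.56 over the genes tested. There were 41 members called higher without FA 2.0 mm replicate 1, against 19.1% of all genes, and 25 without FA 2.0 mm replicate 2, against 21%. Without ME 2.0 mm replicate 2 there were 24, against 18.9%. All 74 members passed the filter on low counts here, and 16 had 0 counts in both ME libraries at 2.0 mm. Those 16 left no room for a call lower in FA. Capture and fixation differ between these groups and cannot be told apart from the cells they hold.

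Zm00001d034480 stood at 123 and 129.8 CPM in FA at 2.0 mm and 0 in both ME libraries, and was at least 64-fold higher in FA (edgeR adjusted p = 8e-05). Zm00001d039859, at 1215 and 10184 CPM in FA against 4.11 and 3.58 CPM in ME, differed by 10.58 ± 1.37 on the log2 scale (edgeR adjusted p = 0.000233). Zm00001d052174, at 4.07 and 429 CPM in FA against 0 in both ME libraries, was at least 76.6-fold higher in FA (edgeR adjusted p = 0.00654). That last value rests on FA replicate 2, and without it the edgeR adjusted p was 0.0648. The member lower in FA was Zm00001d047323 (log2 difference -2.72 ± 0.89, edgeR adjusted p = 0.031), with 22.4 and 16.9 CPM in FA against 242 and 30.4 CPM in ME. Without ME 2.0 mm replicate 1 its log2 difference was -0.36, with an adjusted p of 0.749, and without FA 2.0 mm replicate 1 or 2 the adjusted p was 0.118 and 0.16.

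Between FA and OSC at 2.0 mm edgeR's quasi-likelihood test called 0 members higher in FA (background 2.45%) and 0 lower (background 0.712%). There were 10 members (13.5%) at an unadjusted p under 0.05, fewer than the 18.5% of all genes tested. DESeq2 called 2 members higher and 3 lower, where it called 5.24% and 7.26% of all genes. The median log2 difference over all 74 members was 0.77, against 0.17 over the genes tested. Other settings of edgeR called at most 4 members higher and 2 lower. Without FA 2.0 mm replicate 1 it called 0 members higher and 1 lower, and without replicate 2 it called 0 in either direction.

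The changes with length were also compared between cell types, tests that were added after the values had been seen. For OSC against ME edgeR's quasi-likelihood test called 0 members in either direction (background 0% in each), with 22 members (29.7%) at an unadjusted p under 0.05, against 9.86% of all genes tested. DESeq2 called 3 members higher and 0 lower, against 1.08% and 0.601% of all genes. For FA against OSC edgeR's test called 0 members higher (background 0.165%) and 0 lower (background 0.0285%). There were 6 (8.11%) at an unadjusted p under 0.05 by that test, against 10.6% of all genes tested. DESeq2 called 1 member higher, against 2.28% of all genes. For FA against ME edgeR's test called 11 members (14.9%) as rising more, or falling less, in FA, against 2.48% of genes. It called 0 in the other direction, against 0.182%. Higher calls numbered 3, 4 and 1 without FA 1.5 mm replicates 1, 2 and 3, against 0.404%, 0.436% and 0.264% of all genes. Where a lone library remained in a group, the count moved both up and down, and the share of all genes called moved as well. For OSC against ME the count of 0 also moved where a lone ME library remained at 1.5 mm.

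The gene length given with the counts had a median of 2206.5 bases over the members, with a range of 597 to 14437 bases. It was 2392 bases over the other genes that reached 100 CPM in both TAP libraries at 2.0 mm, and 1263 bases over all nuclear genes.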

How the data were processed

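CEL-seq2 libraries of total RNA, extracted with the RNAqueous-Micro kit per the labels' protocols, were deposited by the authors as raw counts per gene for 17 libraries, with a gene length in bases. Of the tools, fastp, Trim Galore and HISAT2 are named in the submitters' processing notes. Versions, genome build, annotation, strand use and collapse of molecular identifiers are not given in the sources used here, so genes that overlap or resemble another gene are uncertain, and order between genes by CPM, as in the rule, is not corrected for how well each 3′ end is captured or annotated. A second header line held library names, and 0 per-sample columns were left unused.

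Members were selected on CPM from library totals over all 46430 rows. The members and lists were chosen with earlier results of these data known. In R 4.3.3, edgeR 4.0.16 with limma 3.58.1 tested the counts of all genes two-sided by its robust quasi-likelihood F-test, with TMM scaling and filterByExpr by group (minimum count 10, minimum total 15), and Benjamini-Hochberg adjusted p under 0.05 over all genes tested. The fits held the 5 FA libraries, the 8 ME and OSC libraries, or the 13 ME, OSC and FA libraries; TAP libraries were left out because they chose the members. The code was tested on simulated data. Lower bounds of folds use 3 counts over a group, and intervals are 95% exact counting intervals. Medians over the members came from fits with no filter.

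Genes were named by rule: the 10 highest in TAP, in each comparison up to 3 called members with the largest rise and fall whose groups did not overlap, the 5 highest in ME and in OSC at 2.0 mm, the 3 highest and lowest ratios of FA to TAP, and those nearest the thresholds. Others are those with the smallest adjusted p, those singled out beside a count and those whose changes differed between cell types; they were chosen after their values were seen. Lists of marker genes by symbol matched 0 rows, since the RefSeq gene table (Zm-B73-REFERENCE-NAM-5.0) held 0 of the 44146 nuclear IDs. Alternatives were RLE factors, unscaled totals, no filter, DESeq2 1.42.0, a replicate block, other sets of libraries in the fit, and each library left out. Tables and figures were made with Python 3.11.15, numpy 2.4.6, pandas 2.3.3 and matplotlib 3.10.9.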

Additional observations from a re-analysis of the deposited data

Results flagged for a closer look

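For 11 members the change between 1.5 mm and 2.0 mm differed between fixed anthers and meiocytes by a test of the difference itself (edgeR's quasi-likelihood test over 17560 genes, Benjamini-Hochberg adjusted). In all 11 the difference was towards higher values in FA, and the test called 2.48% of all genes in that direction. The calls depended on single libraries: 1 of the 11 was still called without FA 1.5 mm replicate 3, 3 without FA 1.5 mm replicate 1 or FA 2.0 mm replicate 2, 5 without FA 2.0 mm replicate 1, and 8 without ME 1.5 mm replicate 2. Over 14 alternatives, calls were kept in 12 for Zm00001d048079, Zm00001d039859 and Zm00001d044021, and in 8 for Zm00001d004209, Zm00001d034480, Zm00001d042487 and Zm00001d039638. They were kept in 5 for Zm00001d044649 and Zm00001d039066, in 3 for Zm00001d040117 and in 2 for Zm00001d026369.

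In 4 of them at least 1 FA library at 1.5 mm had 0 counts. Zm00001d048079 (edgeR adjusted p = 0.0127) stood in FA at 0.656, 0 and 0 CPM, then 36.1 and 395 CPM, and in ME at 1.72 and 21.5 CPM, then 1.03 and 0 CPM. Zm00001d026369 (edgeR adjusted p = 0.0471) stood in FA at 0 in all 3 libraries, then 19.9 and 89.5 CPM, and in ME at 0 and 12.2 CPM, then 0 in both. Zm00001d004209 (edgeR adjusted p = 0.0265) stood in FA at 0, 2.33 and 0 CPM, then 18.3 and 154 CPM, and in ME at 2.15 and 18.2 CPM, then 0 and 1.79 CPM. In these 3 genes the ME value at 1.5 mm came mainly from replicate 2. Zm00001d044021 (edgeR adjusted p = 0.0123) stood in FA at 0.656, 0 and 0.291 CPM, then 44.3 and 79.6 CPM, while ME stayed between 16.1 and 25.04 CPM in all 4 libraries.

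In Zm00001d039859 (edgeR adjusted p = 0.012) FA went from between 9.01 and 21.7 CPM to 1215 and 10184 CPM, while ME stood at 0.429 and 8.59 CPM, then 4.11 and 3.58 CPM. In Zm00001d040117 (edgeR adjusted p = 0.0425) FA went from at most 2.33 CPM to 40.6 and 80.9 CPM, and ME from 0 and 4.65 CPM to 0 in both. In Zm00001d034480 (edgeR adjusted p = 0.0215) FA went from between 38.7 and 43.5 CPM to 123 and 129.8 CPM, and ME from 6.01 and 1.79 CPM to 0 in both. FA rose in these 3 genes, and ME was at most 8.59 CPM in any library.

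In the other 4, ME was lower at 2.0 mm or FA replicates differed widely. Zm00001d044649 (edgeR adjusted p = 0.0304) stood in FA at 50.5, 48.9 and 31.1 CPM, then 37.3 and 52.8 CPM, and in ME at 18.0 and 22.2 CPM, then 1.03 and 0 CPM. Its FA groups overlapped. Zm00001d042487 (edgeR adjusted p = 0.0201) stood in FA at 15.7, 12.4 and 12.8 CPM, then 47.6 and 55.8 CPM, and in ME at 8.58 and 3.94 CPM, then 0 in both. Zm00001d039638 (edgeR adjusted p = 0.0226) stood in FA at 14.4, 12.4 and 10.5 CPM, then 58.0 and 718 CPM, and in ME at 69.5 and 16.8 CPM, then 17.4 and 1.79 CPM. Zm00001d039066 (edgeR adjusted p = 0.0365) stood in FA at 12.5, 12.4 and 16.9 CPM, then 23.9 and 60.6 CPM, and in ME at 53.2 and 27.2 CPM, then 9.24 and 5.36 CPM.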

How the results depend on the processing

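The number of members, 74, was 39 with a limit of 10 CPM at 1.5 mm, 253 with 50 CPM at 2.0 mm, and 93 to 131 with a TAP library left out. In FA, members called higher (28) ranged over 16 to 54 with a library left out, and members called lower (4) over 1 to 6. Lower calls were 2 with DESeq2 and 0 with all 17 libraries in one fit, against 14.3% and 1.66% of all genes. In OSC, higher calls with length (0) were 4 with no filter, DESeq2 or all 17 libraries, against 0.614%, 1.61% and 0.792% of all genes. With only the libraries compared they were 21, against 6.69%, and lower calls (0) were 2, against 4.58%. In ME, lower calls (0) were 1 with no filter and 2 with all 17 libraries, against 0.347% and 2.18% of all genes. In OSC against ME, higher calls (25) were 38 with all 17 libraries and 9 to 18 with a library left out, and lower calls (3) 0 to 2. The share of all genes called higher in OSC than in ME rose as well with all 17 libraries, from 20.7% to 32.6%. In FA against OSC, higher calls (0) were 4 with no filter, 2 with DESeq2 and 1 with only the libraries compared. The shares of all genes were 2.7%, 5.24% and 1.06%. Lower calls (0) were 2 with RLE factors, no filter or all 17 libraries, against 1.56%, 1.15% and 0.415% of all genes. They were 3 with DESeq2 and 1 with only the libraries compared, against 7.26% and 1.01%. In FA against ME, higher calls (44) were 29 with only the libraries compared and 24 to 41 with a library left out, and lower calls (1) were 2 with RLE factors, no filter, DESeq2 or all 17 libraries, 0 with only the libraries compared and 0 to 1 with a library left out. Of all genes, 26.3% were called higher in FA than in ME with only the libraries compared, and 6.77% lower. The shares called lower were 8.74% with RLE factors, 3.67% with no filter, 12% with DESeq2 and 7.4% with all 17 libraries. For the change in FA minus that in ME, higher calls (11) were 7 with RLE factors or unscaled totals, against 1.04% and 0.979% of all genes. They were 31 with no filter and 18 with DESeq2, against 4.11% and 5.05%, and varied widely with a library left out. For OSC minus ME (0) they were 6 with no filter and 3 with DESeq2, against 0.549% and 1.08% of all genes. For FA minus OSC (0) they were 3 with no filter and 1 with DESeq2, against 0.747% and 2.28%. The causes were not tested.

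Over all genes, with both directions counted together, calls in FA with length (4782) were 838 with all 17 libraries. They were 2609 to 3267 with an FA library at 1.5 mm left out. In OSC (2) they were 265 with no filter, 377 with DESeq2, 321 with all 17 libraries, 1452 with only the libraries compared and 0 to 0 with a library left out. In ME (0) they were 131, 70 and 424 with no filter, DESeq2 and all 17 libraries, and 0 to 96 with a library left out. In OSC against ME (4985) they were 8531 with all 17 libraries and 1719 to 3167 with a library left out. In FA against OSC (556) they were 1206 with no filter, 1982 with DESeq2, 308 with all 17 libraries, 320 with only the libraries compared and 96 to 291 with a library left out, and in FA against ME (6542) they were 4077 to 4870 with a library left out. For FA minus ME changes (468) they were 217 with RLE factors, 206 with unscaled totals, 1422 with no filter, 1110 with DESeq2 and 51 to 1346 with a library left out. For FA minus OSC (34) they were 320 with no filter, 533 with DESeq2 and 0 to 20 with a library left out, and for OSC minus ME (0) 194, 165 and 0 to 60 under the same settings.

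The labels give groups the same replicate numbers and nothing else that pairs libraries. Replicate differences correlated between compared groups at -0.25 to -0.01 across 9050 genes. With a replicate block, members called lower were 1 in FA and 1 in OSC against ME, against 7.76% and 8.15% of all genes. Members called higher in FA minus ME were 0, against 0.0911%. Genes called were 2569 in FA, 1 in OSC, 169 in FA against OSC, 16 in FA minus ME and 0 in FA minus OSC. With the ME numbers crossed in the block 0 genes were called. For the 16 gene results named by comparison, 135 of 175 alternative values kept direction and call, 40 lost the call and 0 reversed. Depth limits TAP and OSC at 1.5 mm most, where 3 counts reach 10.7 CPM in the smallest library.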

Other observations

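In some members every library of one group moved up with anther length while every library of another moved down. Those between OSC and FA are given here, and others between ME and OSC or FA are not listed. They were picked out after their values were seen, and no share over all genes was computed. Zm00001d009638 stood in OSC at 343 and 317 CPM, then 485 and 470.5 CPM, and in FA at 237, 266 and 298.5 CPM, then 173 and 151 CPM. Zm00001d037927 moved the other way, at 104 and 146 CPM, then 66.4 and 89.2 CPM in OSC, and at 52.4, 71.4 and 70.6 CPM, then 159.7 and 87.4 CPM in FA. Zm00001d000526 did so too. In OSC it stood at 11.04 and 10.69 CPM, then 5.315 and 9.865 CPM. In FA it stood at 34.75, 38.03 and 34.88 CPM, then 103 and 119.4 CPM. No member passed edgeR's quasi-likelihood test of the difference between the FA and OSC changes, where 6 (8.11%) had an unadjusted p under 0.05, against 10.6% of all genes, and DESeq2 called 1.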
